A study of Mus musculus with 6 samples.

Results

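The 41 genes described here are imprinted genes of the mouse, and each matched exactly 1 of the 34745 genes of the table. With earlier results of these data known, they were chosen by symbol from a list of textbook imprinted loci. They form 19 loci on 10 chromosomes, of which 10 loci hold more than 1 of the genes and 9 hold 1, and 16 of the genes lie on chromosome 7. RNA-seq was made from the MGE (medial ganglionic eminence), a ventral forebrain region from which many inhibitory interneurons arise, at embryonic day 12.5. There were 3 wild type littermate libraries and 3 libraries of mice with both copies of Sp9 lost (Sp9-/-), all on a mixed background of C57BL/6J, 129S6 and CD1. Sp9 encodes a transcription factor with zinc fingers, active in the embryonic ventral forebrain. The labels do not describe the null allele, and they do not say whether a library came from 1 embryo or several, so p-values measure the spread among these 6 libraries, part of which may be technical. The comparison asks how imprinted transcripts of the MGE differ when Sp9 is lost.

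An imprinted gene is transcribed mainly from the copy inherited from the father or mainly from the copy inherited from the mother. The choice is set by DNA methylation laid down in the germ line at control regions, and neighbouring genes of a cluster often share such a region. Many imprinted genes act on growth, on placenta and on the brain, and several of them are abundant in embryonic neurons. The reads used here do not separate the parental copies, so every value below is the sum of both.

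Library totals ran from 6826447 to 10979280 counts, and a floor of 3 counts in a library corresponded to 0.273 to 0.439 CPM (counts per 1000000 counts of the library), for counting error only. Sp9 had 1870 to 2700 counts in the wild type and 89 to 118 in the null libraries. The 11 MGE markers examined, among them Nkx2-1 and Lhx6, were all counted and summed to 3764 to 3976 CPM for wild type against 4407 to 4529 CPM for Sp9 null. Within that list members went both ways under the replicate block described below, with 2 called higher (Dlx1 and Dlx2) and 3 called lower (Lhx6, Maf and Gad1). Microglia markers, 10 of 10 counted, summed to 32.5 to 36.7 CPM for wild type against 8.91 to 14.5 CPM for Sp9 null, and 0 of the 8 tested were called higher and 6 lower. Mitochondrial transcripts took 2.20% to 2.28% of wild type counts and 2.32%, 3.43% and 3.41% of those of Sp9 null 1, 2 and 3. The part of these differences in the results below was not tested. Replicate 2 of both genotypes stood apart. Its 14 neuron markers summed to 2561 and 3086 CPM, against 4173 to 4645 CPM in the other libraries, and its 8 pallium markers to 1.28 and 2.02 CPM, against 17.1 to 47.7 CPM. In this bulk tissue, fewer cells of a type and less RNA per cell cannot be told apart.

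The 41 genes took 0.761% to 1.01% of all counts in the wild type and 0.771% to 1.12% in the null libraries, with the lowest share in replicate 2 of each genotype. Reads were counted for 39 of the 41. On the per-length scale of FPKM (fragments per kilobase and per 1000000 counted), 19 genes had a wild type mean above 10, and 8 were under 1, including the 2 at 0. The highest were Nnat, which encodes the small membrane protein neuronatin, at 265 ± 48.2 FPKM, and Ndn, which encodes the neuronal growth suppressor necdin, at 164 ± 65.5 FPKM (SD, n = 3 wild type libraries each). Grb10 at 71.6 ± 6.81, Peg10 at 61.1 ± 12.02 and Mest at 58.3 ± 4.72 FPKM came next. The wild type ranges of Grb10 and Peg10 overlapped, as did those of Peg10 and Mest, so the order of these 3 is not resolved. Phlda2, a growth-restraining gene of the placenta, and Snurf, the upstream reading frame of the Snrpn transcript, had 0 counts in all 6 libraries.

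**Figure D1:**
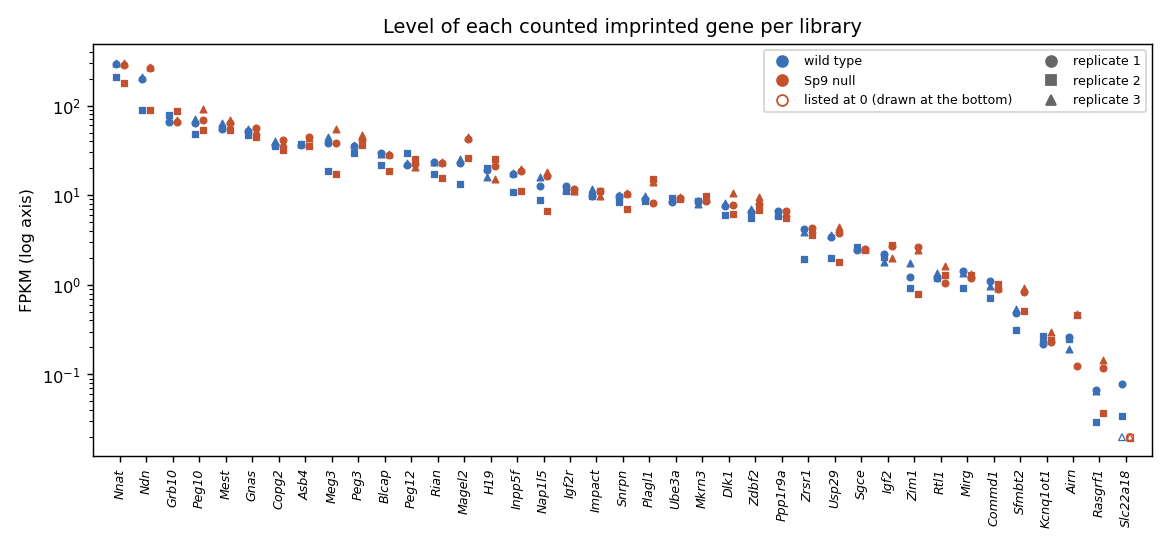
FPKM on a log axis for each of the 39 counted imprinted genes, ordered by wild type mean, with 1 point per library (blue wild type, red Sp9 null, shape for the replicate number, open symbols at the bottom for libraries at 0). Nnat and Ndn lie highest, and the points of the 2 genotypes interleave for most genes. For Magel2 and Peg3 every null point lies above every wild type point.

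Of the 41 genes, 37 passed the filter on low counts and were tested. Without the replicate number as a term, 0 of the 37 were called at an adjusted p under 0.05 (edgeR quasi-likelihood test, adjusted over 14929 genes), where 0.147% of all tested genes were. In that fit 4 of the 37 had an unadjusted p under 0.05, all higher in the null libraries, namely Magel2, Peg3, Zdbf2 and Sfmbt2. Over all tested genes that share was 5.91%, or 2.95% counting higher genes alone. DESeq2 without the block called 1, Magel2, as higher, against 0.268% of genes. The replicate numbers were taken as pairs from the data, not from the labels, and it cannot be told how replicates 1 and 3 pair. With the replicate number as a block, 6 were called, and all 6 rose: Magel2, Ndn, Peg3, Peg10, Zdbf2 and Sfmbt2. They are 16.2% of the tested members, where 2.22% of all tested genes were called as higher. As the members were chosen with earlier results of these data known, this comparison is not independent of the data. None of the 37 was called as lower, against 1.78% of all tested genes. All 3 null libraries lay above all 3 wild type libraries for Magel2 and Peg3 (4.95% of all tested genes), and all 3 lay below them for 0 of the 37 (8.06%). The median log2 fold change of the 37, Sp9 null over wild type, was 0.11 with the block, against -0.01 over all tested genes. Of the 6, 2 genes, Magel2 and Zdbf2, were also called with each numbered pair left out in turn (0.288% of all tested genes), and 3, Magel2, Peg3 and Zdbf2, by DESeq2 with the block (0.643%).

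**Figure D2:**
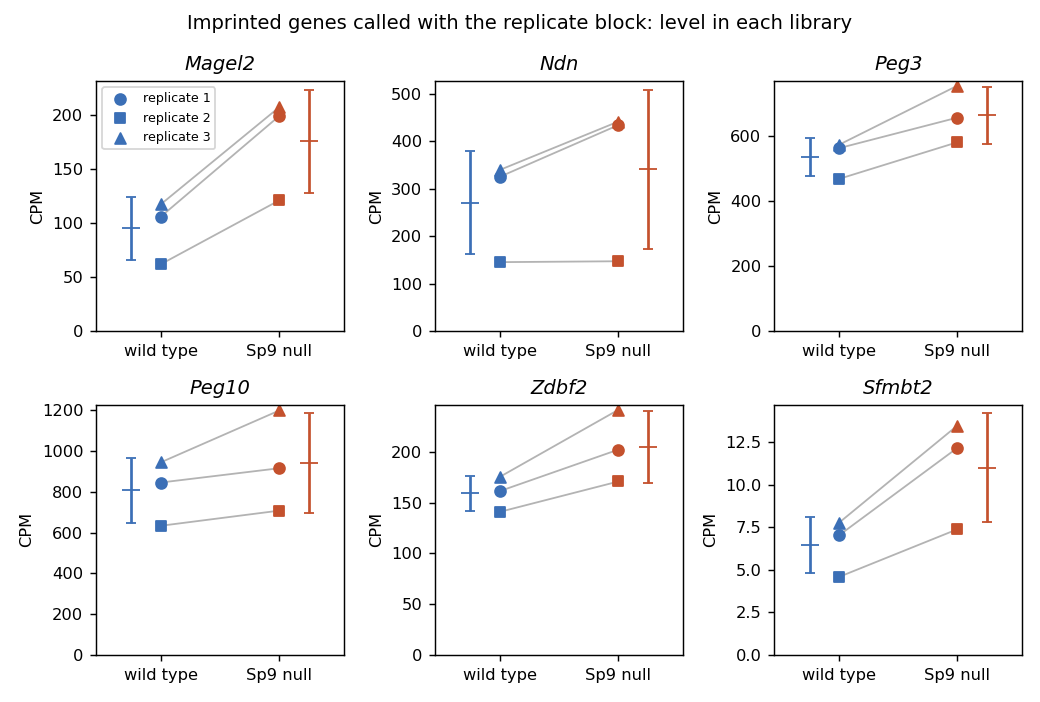
CPM in each library of the 6 imprinted genes called with the replicate block, with a line joining libraries of the same replicate number, and the mean ± SD of each genotype (n = 3) beside the points. Magel2 rises in all 3 pairs, by like log2 ratios of 0.91, 0.96 and 0.82, while Ndn barely differs between the replicate 2 libraries (145 and 147 CPM).

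All 6 are described as expressed from the paternal copy. Among the 23 tested members with paternal expression, the 6 were called and the median log2 fold change with the block was 0.14. Among the 13 tested members with maternal expression in at least some tissues or from some promoters, 0 were called and the median was 0.08. Over all tested genes, 2.22% were called as higher and 1.78% as lower with the block, and the median was -0.01. At those shares, 0 calls among 13 genes do not set the maternal genes apart. The difference between these sets was not tested, and the reads do not show which copy was transcribed. As the members were chosen with earlier results known, the sets are not independent of these data.

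**Figure D3:**
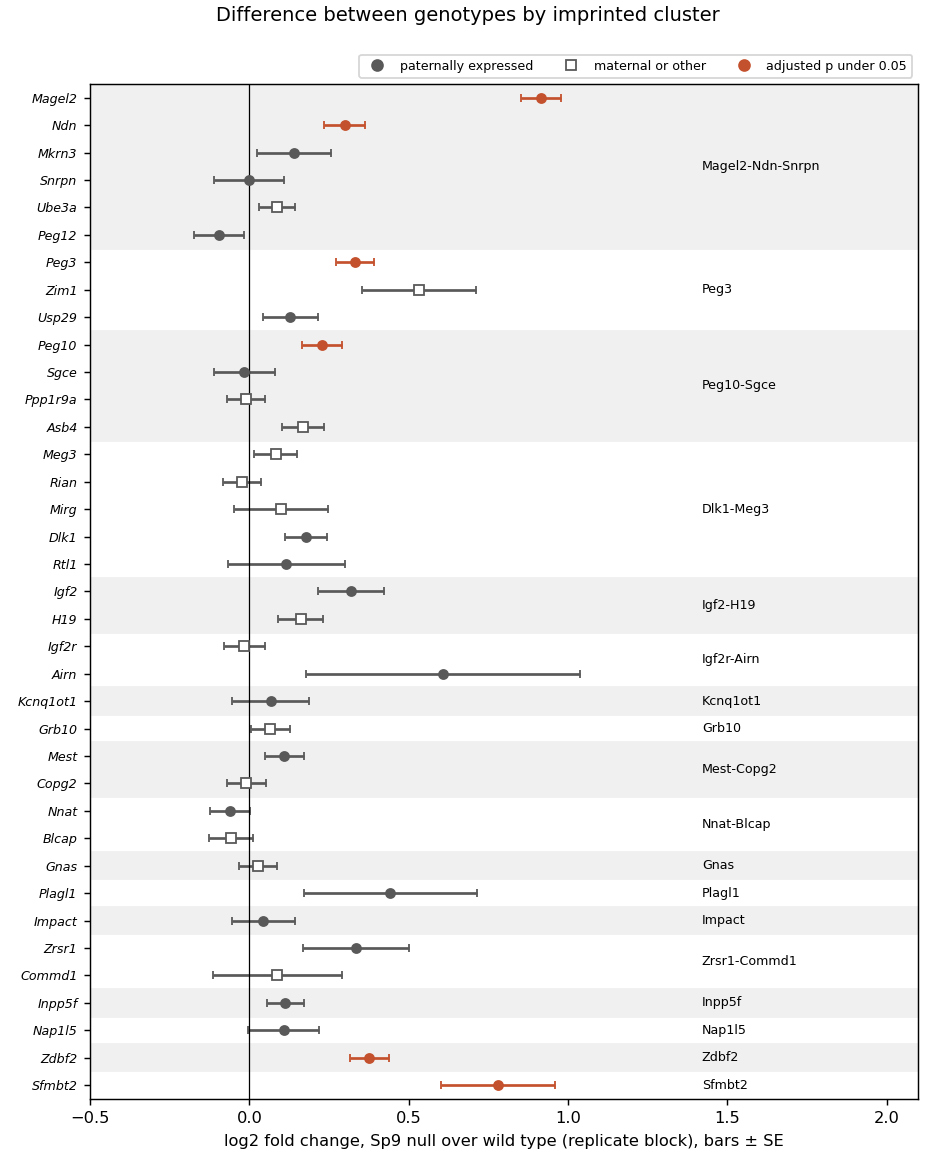
Log2 fold change of Sp9 null over wild type with its SE, from the fit with the replicate block, for the 37 tested imprinted genes grouped by locus. Filled circles are paternally expressed genes and open squares the others. The 6 called genes (red) lie to the right of 0, at 0.23 to 0.92, and Magel2 lies farthest from 0.

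The Magel2-Ndn-Snrpn cluster lies on chromosome 7 between 59228750 and 62464510 (GRCm38) and corresponds to the human region of Prader-Willi and Angelman syndromes. Magel2 encodes a MAGE family protein that works with ubiquitin ligases in endosomal sorting, and it is known for its expression in the hypothalamus. It was at 106, 62.1 and 118 CPM for wild type 1, 2 and 3, against 199, 121 and 208 CPM for Sp9 null 1, 2 and 3, the order used for every gene below. Every null library lay above every wild type library, although null replicate 2 exceeded wild type replicate 3 by little. The mean was 95.3 ± 29.3 CPM for wild type against 176 ± 47.6 CPM for Sp9 null (SD, n = 3 each). Within the pairs the log2 ratio of null to wild type CPM was 0.91, 0.96 and 0.82. With the block Magel2 rose 1.89-fold, by 0.92 on the log2 scale (SE 0.06, edgeR adjusted p = 3.31e-13). Without the block it was 0.90 (SE 0.30, edgeR adjusted p = 0.777). Without pair 2 the blocked value was 0.88, with edgeR adjusted p = 2.34e-05.

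Among its neighbours Ndn was called with a smaller change and the other 4 tested genes did not pass. Ndn was at 325, 145 and 339.7 CPM for wild type against 434, 147 and 441 CPM for Sp9 null. Replicates 1 and 3 were higher in the null and replicate 2 was nearly level, so the groups overlapped. With the block Ndn rose by 0.30 on the log2 scale (SE 0.06, edgeR adjusted p = 0.00478), and the call was lost without pair 3 (adjusted p = 0.274) and by DESeq2 with the block (0.0529). Mkrn3, which encodes a RING finger ubiquitin ligase known for its part in puberty timing, was at 22.1, 22.1 and 20.4 CPM for wild type against 21.8, 25.1 and 22.9 CPM for Sp9 null. Peg12, a gene of the Frat family of GSK3-binding proteins, was at 58.0, 77.7 and 61.0 CPM against 59.5, 66.7 and 55.03 CPM. Neither passed, with blocked values of 0.14 (SE 0.12) for Mkrn3 and -0.10 (SE 0.08) for Peg12 on the log2 scale. Snrpn, which encodes the splicing protein SmN of neurons, was at 28.6, 24.9 and 29.2 CPM against 30.6, 20.7 and 31.3 CPM. Its blocked log2 fold change was -0.002 (SE 0.11). Ube3a, a ubiquitin ligase gene that neurons express from the maternal copy, was at 242, 268 and 256 CPM against 267, 259 and 275 CPM, with 0.09 (SE 0.06), and did not pass.

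Ratios of Magel2 to its neighbours within a library do not depend on library size, and they were taken after the values had been seen. The ratio of Magel2 to Ndn counts was 0.33, 0.43 and 0.35 in the wild type and 0.46, 0.82 and 0.47 in the null replicates. The ratio to Snrpn was 3.71, 2.49 and 4.02 against 6.51, 5.86 and 6.63, and that to Ube3a was 0.44, 0.23 and 0.46 against 0.75, 0.47 and 0.75. For these 3 neighbours the genotypes did not overlap. Each gave p = 0.1 by a two-sided exact permutation test of the log2 ratio, the smallest that 3 against 3 libraries allow, and 0.333 after adjustment over the 10 ratios tested. The ratios to Mkrn3 and Peg12 overlapped between genotypes, with exact permutation p = 0.2 and 0.3, although the ratio was higher in the null library of all 3 pairs.

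**Figure D4:**
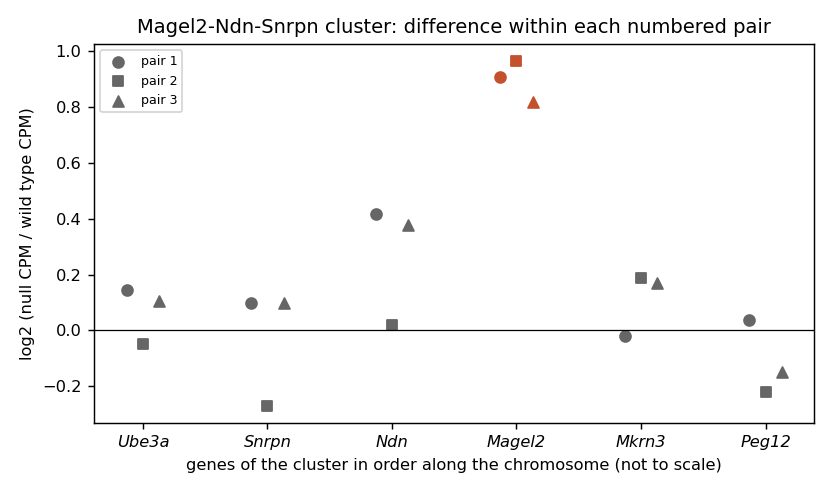
Log2 ratio of null to wild type CPM within each numbered pair for the 6 counted genes of the Magel2-Ndn-Snrpn cluster, in their order along the chromosome. The 3 points of Magel2 lie between 0.82 and 0.96, and those of the other genes between -0.27 and 0.42.

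The sequences before the starts of Magel2, Ndn, Mkrn3 and Peg12 are shown because these neighbouring genes have short, nearly adjacent units and differ in how far they moved. Each is the 250 bases before the RefSeq start on GRCm38.p6, read 5′ to 3′ along the gene, at chr7:62376729-62376978 (+), chr7:62348027-62348276 (+), chr7:62420154-62420403 (-) and chr7:62464511-62464760 (-). Capitals mark the GC box GGGCGG on either strand, the core letters to which proteins of the Sp family are known to bind.
Magel2: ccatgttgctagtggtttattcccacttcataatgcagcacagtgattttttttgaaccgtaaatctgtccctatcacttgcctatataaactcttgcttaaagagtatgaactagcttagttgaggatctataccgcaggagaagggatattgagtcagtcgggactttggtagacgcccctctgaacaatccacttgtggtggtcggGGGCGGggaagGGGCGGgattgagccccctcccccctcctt
Ndn: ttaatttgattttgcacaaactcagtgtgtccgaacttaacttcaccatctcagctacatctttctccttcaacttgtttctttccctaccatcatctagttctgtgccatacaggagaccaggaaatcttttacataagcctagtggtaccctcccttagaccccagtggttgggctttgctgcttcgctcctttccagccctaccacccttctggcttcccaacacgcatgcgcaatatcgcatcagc
Mkrn3: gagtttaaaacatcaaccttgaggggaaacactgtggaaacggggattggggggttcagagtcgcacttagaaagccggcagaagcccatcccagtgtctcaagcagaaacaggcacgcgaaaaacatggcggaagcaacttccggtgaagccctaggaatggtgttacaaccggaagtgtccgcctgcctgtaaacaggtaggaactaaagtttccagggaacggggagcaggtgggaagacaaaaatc
Peg12: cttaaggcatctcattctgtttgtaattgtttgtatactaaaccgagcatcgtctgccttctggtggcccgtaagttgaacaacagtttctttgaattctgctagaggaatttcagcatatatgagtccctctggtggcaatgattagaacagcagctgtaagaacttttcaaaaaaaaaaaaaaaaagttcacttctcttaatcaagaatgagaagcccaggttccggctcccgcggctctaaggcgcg
The Magel2 window holds 2 GC boxes, beginning 41 and 30 bases before the start and sharing no base. The other 3 windows hold 0, that of the called gene Ndn among them. Elsewhere in the cluster, the window of Ube3a, which did not pass, holds 1, and those of Snrpn hold 0. Whether the letters bear on the changes was not tested. At least 1 GC box was found in 32.7% of the 32851 RefSeq windows of this length, and 2 or more in 16.7%. By the same measure, 25 of the 54 windows of the members held at least 1. Of the 36 members with windows, 19 had a GC box in at least 1 window. Grb10 had 5 in 1 window, so the letters are not particular to Magel2. A match is a description of the letters and no evidence that a protein was bound there.

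Other transcripts of the cluster bear on how its counts are read. Snurf lies wholly inside a gene named Gm38393, which also overlaps Snrpn, so reads of the Snurf-Snrpn transcript may have been counted under that name. Gm38393 was at 37.2, 44.6 and 43.0 CPM for wild type against 53.3, 61.9 and 50.7 CPM for Sp9 null, and its groups did not overlap. It rose with the block, by 0.43 (SE 0.09, edgeR adjusted p = 0.00133), which did not hold without pair 2 (0.18). Snhg14, the long host RNA of the cluster's small nucleolar RNAs, runs antisense over the end of Ube3a. It was at 195, 169.8 and 177 CPM against 219, 181 and 249 CPM and rose by 0.27 with the block (SE 0.07, edgeR adjusted p = 0.0189), which did not hold without pair 2 or pair 3. Strand is not stated, so reads of overlapping genes may not be fully separated.

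The 12 hypothalamus markers, of which 11 were counted and Avp was at 0, summed to 10.5, 6.14 and 12.2 CPM for wild type 1, 2 and 3, against 18.6, 7.38 and 19.4 CPM for Sp9 null. Of the 3 that could be tested, 0 were called with the block. The summed level was thus higher in the null library of each pair, and lowest in replicate 2, as was Magel2. Its part in the Magel2 result was not tested.

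The Peg3 cluster lies on chromosome 7 between 6671456 and 6967216. Peg3 encodes a large zinc finger protein of embryo, placenta and brain. It was at 562, 467 and 572 CPM for wild type against 655, 579.8 and 753 CPM for Sp9 null, and the groups did not overlap. The mean was 534 ± 57.7 CPM for wild type against 663 ± 87.0 CPM for Sp9 null (SD, n = 3 each). With the block Peg3 rose by 0.33 (SE 0.06, edgeR adjusted p = 0.000423). The value was 0.33 without pair 2, where the call was lost (adjusted p = 0.101), as it was without pair 3 (0.124). Usp29, a deubiquitinase gene whose start on the other strand is separated from that of Peg3 by 163 bases (RefSeq), was at 54.5, 31.4 and 57.4 CPM against 60.4, 28.7 and 68.9 CPM. It did not pass, with 0.13 (SE 0.09) on the log2 scale under the block. Zim1, a zinc finger gene expressed from the maternal copy, was at 14.2, 10.4 and 19.96 CPM against 30.0, 9.11 and 28.4 CPM. Its blocked log2 fold change of 0.53 (SE 0.18) did not pass (edgeR adjusted p = 0.131), and without pair 2 it was 0.79 and was called (0.0313). The ratio of Peg3 to Usp29 counts was 9.97 to 14.9 in wild type and 10.9 to 20.2 in null libraries and overlapped, with exact permutation p = 0.5, although it was higher in the null library of all 3 pairs. The test does not use the pairs.

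Peg3 and Usp29 are transcribed away from a shared stretch, which is shown for that reason. The 250 bases before the Peg3 start, at chr7:6730420-6730669 (-) of GRCm38.p6, share 163 bases with the same window of Usp29, and these are in capitals.
Peg3: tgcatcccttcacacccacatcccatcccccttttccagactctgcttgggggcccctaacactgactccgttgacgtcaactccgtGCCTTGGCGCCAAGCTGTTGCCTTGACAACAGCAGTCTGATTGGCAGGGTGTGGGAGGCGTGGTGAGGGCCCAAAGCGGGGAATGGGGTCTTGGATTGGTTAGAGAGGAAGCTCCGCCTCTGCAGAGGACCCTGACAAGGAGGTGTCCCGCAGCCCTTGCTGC
The stretch holds 0 GC boxes on either strand, and the ZFP57 core letters TGCCGC, which occur in 8.68% of all windows, are also absent from it. ZFP57 is the zinc finger protein that keeps methylation at imprinting control regions, and these letters are the core of its known site.

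The Peg10-Sgce cluster lies on chromosome 6 between 4674350 and 5433022. Peg10, a retrotransposon-derived gene that the placenta requires, was at 846, 633 and 945 CPM for wild type against 916, 708 and 1199 CPM for Sp9 null. Each null library lay above the wild type library of its number. Null 1 lay below wild type 3, so the groups overlapped. With the block Peg10 rose by 0.23 (SE 0.06, edgeR adjusted p = 0.0289). The call was lost without pair 2 (0.345) and without pair 3 (0.54), and DESeq2 with the block did not call it (0.096). Sgce, the epsilon-sarcoglycan gene, starts next to Peg10 on the other strand and was nearly level, at 32.5, 35.6 and 34.5 CPM against 33.3, 33.0 and 33.8 CPM. Its blocked log2 fold change was -0.02 (SE 0.10). Ppp1r9a, which encodes the actin-binding protein neurabin, was at 171, 149.8 and 166 CPM against 171, 142 and 163 CPM, with -0.01 (SE 0.06). Asb4, an ankyrin repeat and SOCS box gene, was at 149, 153 and 155 CPM against 184, 145 and 180.3 CPM, with 0.17 (SE 0.07). These 3 did not pass. The ratios of Peg10 to them overlapped between genotypes, with exact permutation p of 0.4, 0.4 and 0.9. Those to Sgce and Ppp1r9a were higher in the null library of all 3 numbered pairs. The ratio to Ppp1r9a was, however, lower in null 1 (5.36) than in wild type 3 (5.71).

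In the Dlk1-Meg3 cluster, on chromosome 12 from 109452823 to 109749460, 0 of 5 genes passed in either fit. Meg3, a long non-coding RNA of the maternal copy, was at 977, 472 and 1137 CPM for wild type against 974, 441 and 1383 CPM for Sp9 null. Replicate 2 was lowest in both genotypes, and this spread was far larger than the blocked log2 fold change of 0.08 (SE 0.07). Rian, the non-coding RNA that hosts small nucleolar RNAs, was at 532, 397 and 530.3 CPM against 528, 357 and 542 CPM, with -0.02 (SE 0.06). Mirg, which hosts microRNAs, was at 17.0, 10.99 and 16.0 CPM against 14.2, 15.6 and 15.7 CPM. The growth factor-like membrane protein gene Dlk1, of the paternal copy, was at 126, 100.3 and 139 CPM against 132, 104 and 175 CPM. Its blocked value of 0.18 (SE 0.07) did not pass (edgeR adjusted p = 0.137), and without pair 1 it was 0.23 and was called (0.0292). Rtl1, a retrotransposon-derived gene held in check by microRNAs of the maternal copy, was at 7.55, 7.51 and 8.57 CPM against 6.74, 8.11 and 10.4 CPM. The median blocked log2 fold change of the cluster was 0.10.

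The growth factor axis of Igf2 and its receptor genes showed no call. IGF2 drives growth of the embryo, and IGF2R takes it up for breakdown. Igf2 was at 29.2, 27.1 and 23.7 CPM for wild type against 35.3, 36.9 and 26.3 CPM for Sp9 null, higher in the null library of each numbered pair. Null 3 lay below wild type 1 and 2, so the groups overlapped. The blocked log2 fold change was 0.32 (SE 0.10), which did not pass (edgeR adjusted p = 0.078). H19, the non-coding RNA expressed from the opposite copy of the same locus, was at 109, 115 and 90.3 CPM against 119, 145 and 86.3 CPM, with 0.16 (SE 0.07). On the FPKM scale H19 stood at 18.4 ± 2.26 and Igf2 at 2.03 ± 0.21 in wild type (SD, n = 3). Mesenchyme and meninges markers, 14 of 14 counted, summed to 55.2 to 74.3 CPM for wild type against 63.5 to 95.1 CPM for Sp9 null, and their part in the Igf2 values was not tested. Igf2r was at 122, 108 and 110.01 CPM against 113, 109 and 109 CPM, with -0.02 (SE 0.07). Airn, the RNA antisense to Igf2r that silences it on the paternal copy in many tissues, had 12, 13 and 9 counts in wild type and 4, 24 and 21 in null libraries, too few to set the genotypes apart (blocked log2 fold change 0.61, SE 0.43). Grb10, an adaptor that restrains insulin and IGF1 receptor signalling, was at 664, 799 and 708 CPM against 666, 885 and 697 CPM, with 0.07 (SE 0.06). Of the 17 other IGF pathway genes examined 15 were tested and 0 were called with or without the block, and 1 of them had an unadjusted p under 0.05 without it. Their median was 0.02 with the block. The receptor gene Igf1r had -0.03 (SE 0.08), and Igf1 had 3, 7 and 2 counts in wild type and 5, 12 and 8 in null libraries, all 3 null libraries higher in CPM, and was too low to be tested. The largest difference among the 15 tested genes was 0.72 (SE 0.22) for Igfbp3, an IGF-binding protein gene, which did not pass (edgeR adjusted p = 0.0619), followed by Irs1 at 0.21, Igfbp2 at 0.20 and Igf2bp2 at 0.18. Every null library lay above every wild type library for 1 tested gene, Igfbp3, and below for 2, Igfbp4 and Akt1. Those 2 had -0.16 each with the block and were not called. Over all tested genes these shares were 4.95% above and 8.06% below.

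At the Kcnq1ot1 locus on chromosome 7, Kcnq1ot1, the antisense RNA that silences its cluster in cis, was at 18.6, 22.4 and 21.6 CPM for wild type against 19.5, 20.2 and 25.1 CPM for Sp9 null, with 0.07 (SE 0.12). Slc22a18, a transporter gene of this cluster, had 2, 1 and 0 counts in wild type and 0 in each null library. It and Phlda2 were thus at or under the floor of detection. Cdkn1c, which encodes the cell cycle inhibitor p57 and belongs to the same cluster, is not among the 41. It was at 79.8, 66.3 and 94.7 CPM against 74.0, 43.0 and 97.7 CPM and did not pass (blocked log2 fold change -0.19, SE 0.10, edgeR adjusted p = 0.375).

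Zdbf2, a zinc finger DBF domain gene on chromosome 1 (63273265 to 63314576), was the second gene called under every pair left out. It was at 161, 141 and 175 CPM for wild type against 202, 171 and 241 CPM for Sp9 null. Each null library lay above the wild type library of its number, while null replicate 2 lay inside the wild type range. The mean was 159 ± 17.4 CPM for wild type against 205 ± 35.4 CPM for Sp9 null (SD, n = 3 each). With the block it rose by 0.38 (SE 0.06, edgeR adjusted p = 7.33e-05), and without pair 2 by 0.41 (0.0158). Without pair 3 the adjusted p was 0.0492. RefSeq gives Zdbf2 a far upstream start besides the usual one, and the 250 bases before it are shown because they hold the ZFP57 core letters 3 times on either strand (TGCCGC, in capitals), at chr1:63200108-63200357 (+).
Zdbf2: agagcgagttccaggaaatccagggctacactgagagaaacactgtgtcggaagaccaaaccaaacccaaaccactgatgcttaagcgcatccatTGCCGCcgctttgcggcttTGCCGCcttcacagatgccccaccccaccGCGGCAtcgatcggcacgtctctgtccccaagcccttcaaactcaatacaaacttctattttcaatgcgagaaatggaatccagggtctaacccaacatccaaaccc
Among the 36 members with windows, 7 held these letters in at least 1 window. By window, 8 of their 54 held the letters, where 8.68% of all windows did. The window before the usual start of Zdbf2 held none of them and 3 GC boxes.

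Sfmbt2, a gene of a Polycomb-associated protein on chromosome 2 (10370510 to 10595253), was expressed at a low level, 0.44 ± 0.11 FPKM in wild type (SD, n = 3). It had 67, 50 and 77 counts in the wild type and 83, 81 and 127 in the null replicates, which is 7.03, 4.58 and 7.76 CPM against 12.2, 7.38 and 13.5 CPM. Its imprinting is best known from extraembryonic tissue. The log2 ratio within pairs was 0.79, 0.69 and 0.79. With the block it rose by 0.78 (SE 0.18, edgeR adjusted p = 0.00651), which did not hold without pair 2 (0.094) or pair 3 (0.16), nor in DESeq2 with the block (0.204). It lies 62.7 Mb from Sp9 on the same chromosome. Nnat and Blcap lie 84.3 Mb and Gnas 101 Mb from Sp9, and none of these 3 passed.

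Plagl1, which encodes the zinc finger factor ZAC1 that acts on other imprinted genes, behaved differently between pairs. It was at 145, 139 and 158 CPM for wild type against 133, 243 and 226 CPM for Sp9 null. Pair 1 was lower in the null (-0.12) and pairs 2 and 3 higher (0.81 and 0.52). The blocked log2 fold change of 0.44 (SE 0.27) did not pass (edgeR adjusted p = 0.582). Without pair 1 it was 0.70 and was called (1.19e-14), so this gene turns on which pair is used.

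Among the members not yet described, Nnat, the highest of all by FPKM, was at 2059.97, 1508 and 2145 CPM for wild type against 2022, 1289.98 and 2156 CPM for Sp9 null, with a log2 fold change of -0.06 under the block (SE 0.06). Blcap, the gene in whose intron Nnat lies, was at 105, 77.7 and 102 CPM against 101, 67.0 and 103 CPM, with -0.06 (SE 0.07). Mest, which encodes a hydrolase-like protein, was at 389, 399 and 451 CPM against 456, 378 and 487 CPM, with 0.11 (SE 0.06). Copg2, the coatomer subunit gene whose end overlaps Mest by 912 bases, was at 248, 244 and 279 CPM against 283, 217 and 259 CPM, with -0.01 (SE 0.06). Gnas, the stimulatory G protein alpha subunit gene, was at 806, 730.3 and 846 CPM against 887, 697 and 816 CPM, with 0.03 (SE 0.06). A gene named Gm20721 lies wholly inside Gnas and held 44894 counts in all, beside 45450 for Gnas, so reads of Gnas may be divided between both names. Its own log2 fold change was -0.02 (SE 0.06). Zrsr1, a splicing factor gene inside an intron of Commd1, was at 13.7, 6.32 and 12.9 CPM against 14.1, 11.7 and 13.8 CPM, where wild type replicate 2 was the lowest by far. Commd1, a COMM domain gene, was at 8.07, 5.22 and 7.06 CPM against 6.59, 7.47 and 6.79 CPM. Their log2 fold changes of 0.33 (SE 0.17) and 0.09 (SE 0.20) did not pass, nor did those of the phosphatase gene Inpp5f, the translation regulator gene Impact and the nucleosome assembly-like gene Nap1l5, at 0.11, 0.04 and 0.11. Rasgrf1, a Ras exchange factor gene of the later brain, had 4 to 8 counts in wild type and 5 to 17 in null libraries and was not tested.

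For many of these genes replicate 2 differed from replicates 1 and 3 in the same direction in both genotypes. Replicate 2 was the lowest library of its genotype in both genotypes for 21 of the 37 tested members, where that held for 28.4% of all tested genes. It was the highest in both for 3, Peg12, H19 and Grb10, where the background was 22.5%. Ndn in replicate 2 was lower than the mean of replicates 1 and 3 by 1.19 on the log2 scale in wild type and by 1.57 in null libraries, and Usp29 by 0.83 and 1.17. Magel2 was lower by 0.85 and 0.75. Genes of 1 cluster did not move together in this respect, since Mkrn3 was higher by 0.06 and 0.17 and Peg12 by 0.39 and 0.22. Radial glia markers summed to 3804 and 3944 CPM in replicate 2 and 2801 to 3263 CPM in the other libraries, the reverse of the neuron markers. Their part in the values of the imprinted genes was not tested.

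**Figure D5:**
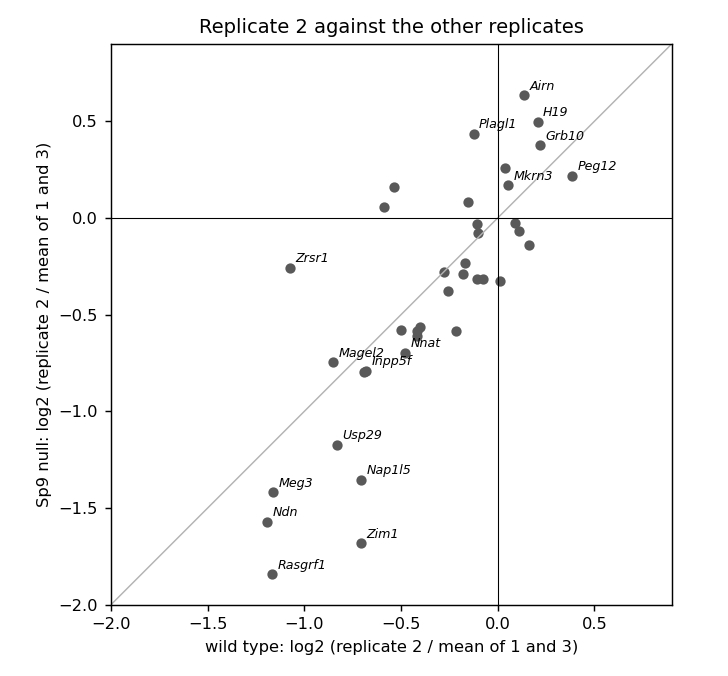
Log2 ratio of replicate 2 to the mean of replicates 1 and 3 (CPM), wild type on the horizontal and Sp9 null on the vertical axis, for the 38 imprinted genes with 20 or more summed counts. Of the 38 points 24 lie below 0 in both genotypes, with Ndn, Meg3, Zim1 and Rasgrf1 farthest down, and few lie to the upper right, among them Peg12, H19 and Grb10.

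Other imprinted genes and the proteins that keep imprints were compared by lists, which were also chosen with earlier results of these data known. Of 45 other genes described as imprinted in at least some tissue, 32 were tested, 0 were called without the block (3 with an unadjusted p under 0.05, against 5.91% of all tested genes), and 3 rose and 0 fell with it. Over all tested genes 2.22% were called as higher and 1.78% as lower with the block. The median log2 fold change of the list was 0.03 with the block. Th, the dopamine synthesis gene tyrosine hydroxylase, rose by 0.78 (SE 0.13, blocked edgeR adjusted p = 0.000103), from 15.2, 9.80 and 15.9 CPM to 24.9, 17.1 and 26.9 CPM. Herc3, a ubiquitin ligase gene in whose intron Nap1l5 lies, rose by 0.59 (SE 0.10, adjusted p = 0.000116). Adam23, a neuronal cell surface gene about which imprinting is described as partial and which neighbours Zdbf2 on chromosome 1, rose by 0.51 (SE 0.09, adjusted p = 0.000185). For all 3 the null libraries lay above the wild type libraries, as they did for Atp10a, which was not called. For 1 tested gene of the list, Trappc9, all null libraries lay below the wild type libraries, and it was not called. Over all tested genes these shares were 4.95% above and 8.06% below. Th and Adam23 were called whichever pair was left out, and Herc3 had adjusted p = 0.0642 without pair 2. The next largest differences in the list, Ddc at -0.44 (SE 0.22) Calcr at 0.38 (SE 0.20), Dio3 at -0.31 and Nespas at 0.29, did not pass.

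Of 25 factors that set or keep imprints, 22 were tested and 0 were called without the block, with 0 at an unadjusted p under 0.05. With the block 1 rose and 0 fell, and the median was 0.02. Among all tested genes 2.22% rose and 1.78% fell, so 1 call in 22 does not set this list apart. For Tet3 and Ehmt1, neither of them called, every null library lay under every wild type one, as for 8.06% of all tested genes. The reverse held for 0 of the factors. Hells, a chromatin remodelling gene needed for DNA methylation, rose by 0.28 (SE 0.06, blocked edgeR adjusted p = 0.00677), from 160.02, 207 and 167 CPM to 177, 278 and 189 CPM. Its call was lost without pair 2 (0.406) and without pair 3 (0.0958), and DESeq2 with the block did not call it (0.132). Dnmt1, the methyltransferase that copies methylation at replication, was at 454 ± 16.4 CPM for wild type against 448 ± 44.4 CPM for Sp9 null (SD, n = 3), with a log2 fold change of 0.0003 under the block (SE 0.06). Zfp57 had -0.03 (SE 0.06), and its partner Trim28, which brings silencing enzymes to bound sites, had -0.03 (SE 0.06). The largest other differences were 0.13 for Rif1, 0.11 for Dnmt3b, 0.11 for Kdm1b and 0.09 for Tet2, none of which passed.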

How the data were processed

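For every gene the deposited table lists, per the file headers, 1 count and 1 FPKM value in each library. TopHat, GRCm38.p4 and Cufflinks 2.1.1 appear in the submitters' processing notes, without roles. Counting program and strandedness are not given in the sources used here. FPKM as deposited equalled count over a fixed length and library total (relative tolerance 0.001) for 21180 of 21180 genes counted in 2 or more libraries. Columns were matched to samples by their labels, and 0 sample columns were unused. Values printed as CPM are counts per 1000000 counts of the library, with 6826447 to 10979280 counts per library.

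Counts were tested with edgeR 4.0.16 (quasi-likelihood, TMM scaling, default expression filter, robust) in R 4.3.3, Sp9 null against wild type, two-sided. P-values were Benjamini-Hochberg adjusted over all 14929 tested genes and called under 0.05. Each standard error was taken as the absolute log2 fold change divided by the root of the F statistic. The main fit had genotype as its term. Replicates are numbered 1 to 3 in each genotype. Their departures from the genotype mean correlated by 0.337, 0.723 and 0.53 between libraries of the same number. All were over 0.1, so the numbers were taken as pairs from the data, not from the labels. Crossing replicates 1 and 3 also gave values over 0.1, namely 0.348 (wild type 1, null 3) and 0.229 (wild type 3, null 1). As departures within a genotype cancel and replicate 2 stood apart in both, this check cannot tell how replicates 1 and 3 pair. The biological coefficient of variation was 0.171 without and 0.068 with the replicate block. Alternatives were other scalings, filters, DESeq2 1.42.0, leaving out libraries and leaving out pairs. The fits were also run on data simulated from these libraries. For the blocked fit the numbered pairs were built in, so this cannot tell how the libraries pair.

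The members and lists (other imprinted genes, imprint maintenance factors, IGF pathway genes and cell type markers) were chosen with earlier results of these data known. Members called in either fit, with groups that do not overlap, or in a multi-gene cluster with 20 or more counts were given by library. Of the other lists the called genes, Cdkn1c, Dnmt1, Zfp57, Trim28, Igf1r, Igf1 and up to 4 with the largest change were named. Gene names and coordinates are those of the table. Promoter windows are from RefSeq on GRCm38.p6, less the 50 bases after the start, and 36 members matched. Member windows on chromosome 18, where Impact lies, were left out of these counts.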

Additional observations from a re-analysis of the deposited data

How the results depend on the processing

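The labels do not say what a replicate number marks, and replicate 2 stood apart in both genotypes. Calls made with the replicate block thus rest on 3 pairs taken from the data, which single out only pair 2. With the replicate block the count of called genes was 597 over all genes, 6 of the imprinted members, 3 of the other imprinted genes and 1 of the imprint maintenance factors. With the block and without pairs 1, 2 and 3 in turn it was 1193, 126 and 219 over all genes, 8, 4 and 2 of the members, and 3, 2 and 3 of the other imprinted genes. Without pair 1, 1 maintenance factor and 1 IGF pathway gene were called. DESeq2 called 84 genes and 1 member without the block, and 163 genes, 3 members and 3 other imprinted genes with it. Without a filter on low counts 65 genes were called, and leaving out 1 library in turn without the block gave 2 to 34, so both the filter and single libraries move that count. Rasgrf1, Slc22a18 and Igf1 had too few counts to be tested, and Airn passed the filter with 4 to 24 counts per library.

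Some genes called in neither edgeR fit of all 6 libraries changed sign between settings, and the cause was not tested. Part of them lay near 0, while others, such as Usp29, Meg3 and Nap1l5, ranged widely. Snrpn was -0.0017 with the block, -0.0078 with library totals, and -0.046 and -0.071 with the block without pairs 1 and 3. Copg2 was 0.0031 with DESeq2 size factors, 0.0029 with DESeq2, and 0.054 and 0.024 with the block without pairs 2 and 3. With the block and without pair 1, Igf2r was 0.031, Gnas -0.026, Impact -0.0088 and Nap1l5 -0.015. Without pair 2, Sgce was 0.017, Ppp1r9a 0.0039, Rian 0.026, Mirg -0.12, Nnat 0.0054, Blcap 0.0006, Impact -0.049 and Commd1 -0.15. Without pair 3, Meg3 was -0.034 and Kcnq1ot1 -0.031. Leaving out 1 library in turn, without the block, gave log2 fold changes of -0.10 to 0.18 for Snrpn, -0.19 to 0.049 for Peg12, -0.10 to 0.45 for Usp29, -0.052 to 0.020 for Sgce, -0.060 to 0.055 for Ppp1r9a and -0.27 to 0.47 for Meg3. The range was -0.14 to 0.15 for Rian, -0.094 to 0.19 for Mirg, -0.029 to 0.35 for Dlk1, -0.056 to 0.26 for Rtl1, -0.025 to 0.36 for H19, -0.050 to 0.037 for Igf2r and -0.050 to 0.15 for Kcnq1ot1. It was -0.075 to 0.17 for Grb10, -0.076 to 0.086 for Copg2, -0.19 to 0.15 for Nnat, -0.17 to 0.12 for Blcap, -0.035 to 0.11 for Gnas, -0.0038 to 0.13 for Impact, -0.092 to 0.20 for Commd1, -0.069 to 0.34 for Inpp5f and -0.11 to 0.49 for Nap1l5.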
